A study of Mus musculus with 8 samples.

Results

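Spi1, Csf1r, Adgre1, Cd68, Lyz2, Irf8, Cebpa, Mitf and Runx1 are genes by which macrophages are made and recognised, and their RNA was followed in RAW264.7 cells with and without follistatin-like 1. The genes were taken from the count table by their symbols, which gave 9 of 22013 genes, and all 9 passed the filter on low counts that left 10748 genes for testing. The genes were chosen for what they are known for, by a rule that uses no measured value, with earlier results of these data known. RAW264.7 is a mouse macrophage-like line grown from a tumor induced by Abelson leukemia virus, and here it stands in for the macrophages of the fatty liver that the study is about. Cells received either PBS, the vehicle, or recombinant FSTL1 (rFSTL1), a secreted glycoprotein, at 100 ng/mL for 24 h, and each condition had 4 libraries of poly(A) RNA. The labels give no duration for PBS and do not say whether the libraries of a condition came from separate cultures, so p-values measure the spread between libraries, which may be partly technical.

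Macrophages arise from myeloid progenitors under a small set of transcription factors. PU.1 (encoded by Spi1) acts with RUNX1, C/EBPα and IRF8 to open myeloid genes, and among the genes it switches on is the receptor for macrophage colony-stimulating factor, CSF1R, whose ligands CSF1 and IL-34 keep macrophages alive. The mature cell is then recognised by the surface receptor F4/80 (Adgre1), the lysosomal protein CD68 and secreted lysozyme M (Lyz2), while MITF and its relatives drive lysosomal and bone-resorption genes.

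Library totals were 15183118 to 20234477 estimated counts under PBS and 15062023 to 19260960 under rFSTL1. The rFSTL1 libraries were less alike than the PBS libraries. The chi-square per degree of freedom between libraries of a group, which is near 1 where only counting error separates them, was 3.05 to 4.22 under PBS and 4.53 to 19.1 under rFSTL1, with the highest value between rFSTL1 replicates 2 and 4. Both libraries were kept.

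Base sequences are shown where they bear on how the values may be read, or for the genes at the extremes of the results. Lyz2 has a near-identical neighbour, Lyz1, so reads could be assigned to either gene. The coding sequences of the annotated transcripts (GENCODE vM21, GRCm38) have 444 bases each and differ at 22, which makes them 95% identical. Coding bases 61 to 120 of both are printed because 9 of the differences lie there, and capitals mark the bases that differ.
Lyz2: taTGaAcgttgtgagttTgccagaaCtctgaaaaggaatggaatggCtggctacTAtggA
Lyz1: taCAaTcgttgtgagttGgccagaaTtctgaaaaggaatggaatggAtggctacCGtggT
Of 1267 runs of 50 bases along the Lyz2 transcript, 195 (15.4%) also occur in Lyz1, and reads that lie wholly within them cannot be told apart.

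Promoter sequences from RefSeq (GRCm38.p6) were found for 6 of the 9 genes (all but Spi1, Csf1r and Adgre1), with 10 start sites in all. The 250 bases before the start are printed for Cd68 and Lyz2, the genes with the highest level per length, and for Irf8, the gene with the largest difference between the conditions. Capitals mark matches, on either strand, to letters bound by PU.1 (GAGGAA), RUNX factors (TGTGGT), IRFs (GAAA, 2 bases of any kind and GAAA), C/EBPs (TTNNGCAA) or MITF (CATGTG or CACGTG).
Cd68 (chr11:69666171-69666420, minus strand): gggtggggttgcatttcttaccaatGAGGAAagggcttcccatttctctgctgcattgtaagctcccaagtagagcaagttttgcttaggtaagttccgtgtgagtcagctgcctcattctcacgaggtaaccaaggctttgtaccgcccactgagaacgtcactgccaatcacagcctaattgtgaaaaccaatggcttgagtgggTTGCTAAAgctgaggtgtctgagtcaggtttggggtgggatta
Lyz2 (chr10:117282273-117282522, minus strand): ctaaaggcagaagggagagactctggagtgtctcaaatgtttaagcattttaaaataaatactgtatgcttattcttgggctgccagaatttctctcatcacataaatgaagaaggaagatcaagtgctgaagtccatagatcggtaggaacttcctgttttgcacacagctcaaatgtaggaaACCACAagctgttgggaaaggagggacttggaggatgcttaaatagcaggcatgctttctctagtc
Irf8 (chr8:120736108-120736357, plus strand): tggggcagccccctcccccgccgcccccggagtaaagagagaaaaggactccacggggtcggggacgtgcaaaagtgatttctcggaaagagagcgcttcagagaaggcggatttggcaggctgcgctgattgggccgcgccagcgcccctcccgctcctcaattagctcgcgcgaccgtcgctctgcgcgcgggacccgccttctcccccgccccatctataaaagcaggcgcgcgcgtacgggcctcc
The Cd68 window held PU.1 letters 225 to 220 bases before the start and C/EBP letters, read on the other strand, 43 to 36 bases before it. The Lyz2 window held RUNX letters on the other strand, 66 to 61 bases before the start, and the Irf8 window held none of the patterns. Over the 10 windows, PU.1 letters were found in 2, RUNX letters in 2, C/EBP letters in 2, MITF letters in 1 and IRF letters in 0. Among 32851 windows of the same length, 23.3% held the PU.1 letters, 14% the RUNX letters, 9.56% the C/EBP letters, 17.6% the MITF letters and 2.98% the IRF letters. These matches describe the letters and show no binding.

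To see how strongly the unstimulated cells carried the macrophage program, the level of each gene was compared across the PBS libraries as CPM per kilobase, where CPM is a count relative to the size of its library after TMM scaling (trimmed mean of M-values), and the kilobases are those of the gene's longest annotated transcript. Lyz2, Cd68 and Csf1r stood above the transcription factors, and Adgre1 below them. Lyz2 (ENSMUSG00000069516), which encodes the lysozyme that macrophages secrete against bacteria, had the highest level at 883 ± 40.8 CPM per kilobase (SD, n = 4), above 99.6% of the tested genes. Cd68 (ENSMUSG00000018774), a heavily glycosylated protein of the lysosomal membrane, followed with 728 ± 7.4 CPM per kilobase, and Csf1r (ENSMUSG00000024621), the CSF1 and IL-34 receptor, with 267 ± 7.45.

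Among the transcription factors, Spi1 (ENSMUSG00000002111) was the highest by a wide margin. Its level of 73.7 ± 3.6 CPM per kilobase (SD, n = 4) was above 92.4% of the tested genes and 4.8 times that of Irf8 (ENSMUSG00000041515), the next gene in the order, at 15.3 ± 1.03. Runx1 (ENSMUSG00000022952), a partner of PU.1 at myeloid genes, had 11.8 ± 0.25 CPM per kilobase and Mitf (ENSMUSG00000035158) had 6.32 ± 0.585. Cebpa (ENSMUSG00000034957), the factor that commits progenitors to the granulocyte and monocyte path, had only 2.68 ± 0.282 CPM per kilobase, above 18% of the tested genes.

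Adgre1 (ENSMUSG00000004730) stood last. The gene for F4/80, the most widely used surface marker of mouse macrophages, had 1.06 ± 0.148 CPM per kilobase under PBS (SD, n = 4), above 9.59% of the tested genes. Over the libraries of both conditions it rested on 41 to 74 counts per library, against at least 13380 for Cd68. No neighbours in this order overlapped across the 4 PBS libraries, yet the order depends on the length used. With the median length of a gene's annotated transcripts, Csf1r (893 CPM per kilobase), Cd68 (889) and Lyz2 (883) lay together at the top, and Adgre1 (3.74) moved above Cebpa (2.94), while the places of Spi1 (259), Irf8 (41.5), Runx1 (27.2) and Mitf (15.3) stayed as they were.

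**Figure D1:**
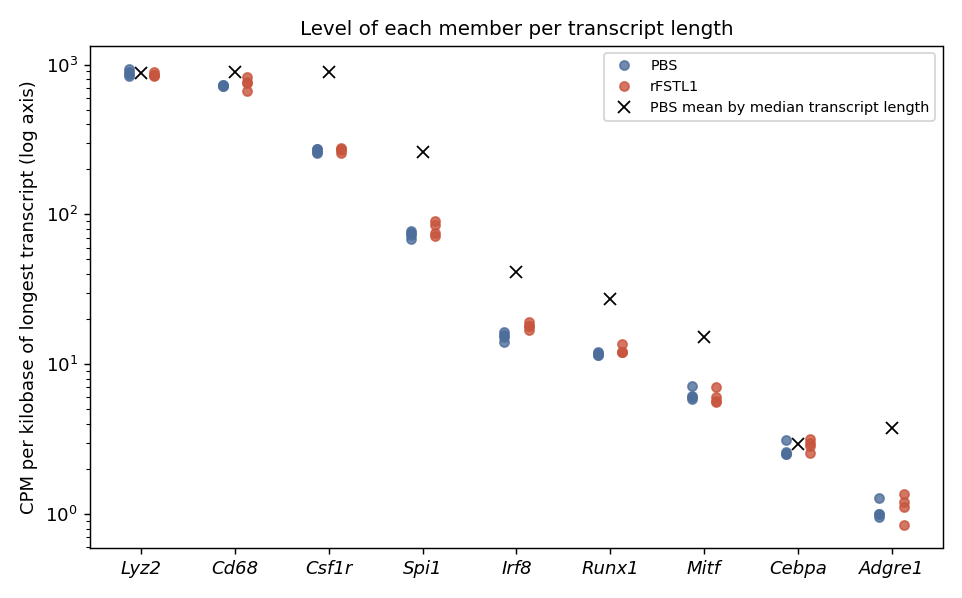
Level of each gene in CPM per kilobase of its longest transcript on a log axis, with 1 point for each PBS (blue) and rFSTL1 (red) library and a cross for the PBS mean by median transcript length. The PBS means run from 883 for Lyz2 to 1.06 for Adgre1, and the crosses of Lyz2, Cd68 and Csf1r lie at nearly the same height.

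Marker lists for macrophages and other cell types were read to check that the cells were what the label says. Of 20 further macrophage markers, 15 had more than 1 CPM under PBS, and their summed level was 6037 to 6107 CPM under PBS and 6072 to 6212 CPM under rFSTL1, ranges that overlapped (exact permutation test, two-sided, p = 0.314). Per length, Cd14, an endotoxin co-receptor, was the highest of them with 494 CPM per kilobase, followed by Tyrobp, a signaling adaptor, with 426, the pore-forming protein gene Mpeg1 with 321 and the lysosomal membrane gene Laptm5 with 311. The complement gene C1qa had 0 counts in every library. C1qb, C1qc and the efferocytosis receptor Mertk never exceeded 2 counts in a library, and Aif1 never exceeded 12.

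Markers of Kupffer cells, the resident macrophages of the liver, were mostly at 0. Of 6 Kupffer cell markers, Clec4f, Vsig4, Timd4 and Marco had 0 counts in all 8 libraries, and only Id3 exceeded 1 CPM. Of 10 markers of neutrophils and their precursors, which also express Lyz2, Spi1 and Cebpa, 6 had 0 counts in every library and only Csf3r exceeded 1 CPM, with summed levels of 14.3 to 17.7 CPM under PBS and 14.6 to 18.4 CPM under rFSTL1. Markers of dendritic cells, which share Irf8, summed to 1.82 to 2.69 CPM under PBS and 1.78 to 2.93 under rFSTL1. B cell markers summed to at most 0.277 CPM under PBS and 0.359 under rFSTL1, and T or NK cell markers to 0 and at most 0.0523.

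The osteoclast list had summed levels of 97.2 to 109 CPM under PBS and 102 to 113 CPM under rFSTL1, mostly from Dcstamp and Nfatc1. Only these 2 of its 10 markers exceeded 1 CPM under PBS, and Calcr had 0 counts in every library. RAW264.7 cells are known to form osteoclasts when stimulated. The melanocyte genes Tyr, Tyrp1 and Dct, which are targets of MITF in pigment cells, had 0 counts in every library. Of 36 markers of B, T, NK, erythroid, mast, endothelial, stromal and pigment cells, 14 had 0 counts throughout and the highest mean of a group was 0.389 CPM, for Cdh5.

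**Figure D2:**
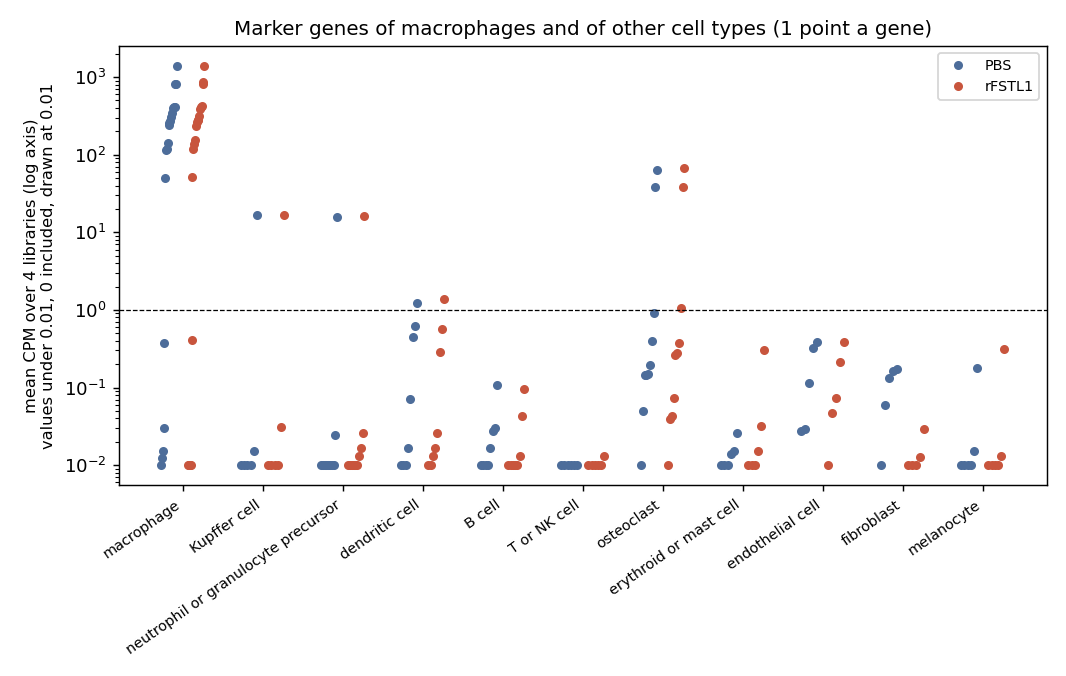
Mean CPM of each marker gene over the 4 PBS (blue) and 4 rFSTL1 (red) libraries, on a log axis, grouped by cell type, with values under 0.01 drawn at 0.01 and a dashed line at 1 CPM. Of the 20 macrophage markers 15 lie above the line, against 1 of 6 Kupffer cell markers (Id3) and 1 of 10 neutrophil markers (Csf3r).

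Whether rFSTL1 altered the program was asked by comparing the conditions with edgeR's quasi-likelihood test over all 10748 genes. In bulk RNA a difference in RNA per cell and a difference in the make-up of the culture cannot be told apart. None of the 9 genes reached a Benjamini-Hochberg adjusted p under 0.05 in edgeR, where 0.344% of all tested genes did, 0.326% with a higher and 0.0186% with a lower value under rFSTL1. DESeq2 and limma voom with sample quality weights called 1 each, Irf8 in both cases, where they called 1.69% and 4.22% of all tested genes. At an unadjusted p under 0.05 in edgeR there was 1 of the 9, Irf8 again, against 15.8% of all tested genes. The log2 fold changes were positive for 7 of the 9 genes, with a median of 0.08, and over all tested genes 52% were positive with a median of 0.006.

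Irf8, which directs monocyte and dendritic cell fate and mediates responses to interferon gamma, had the largest difference. It measured 54, 53, 57.3 and 48.6 CPM in the 4 PBS libraries and 62.7, 59.1, 66.4 and 62.6 CPM in the 4 rFSTL1 libraries. Every rFSTL1 library was above every PBS library. Of all tested genes, 8.16% had groups that did not overlap, 4.63% with rFSTL1 higher throughout and 3.53% with rFSTL1 lower. The mean was 53.2 ± 3.58 CPM under PBS and 62.7 ± 3 CPM under rFSTL1 (SD, n = 4), which the fit gave as 0.23 on the log2 scale (SE 0.06, 95% interval 0.11 to 0.36), or 17.7% (8.03% to 28.1%). In edgeR the unadjusted p was 0.000983 and the Benjamini-Hochberg adjusted p over all tested genes was 0.0951, and 1.24% of all tested genes had an adjusted p under 0.1. The exact permutation test over the 70 assignments of the libraries gave 0.0286, the smallest value it can give.

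The call for Irf8 depended on the test. DESeq2 gave a log2 fold change of 0.23 with a Benjamini-Hochberg adjusted p of 0.0313, and limma voom with sample quality weights gave 0.26 with 0.0181. In edgeR without rFSTL1 replicate 2, the library with the lowest Irf8 level of its group, the log2 fold change was 0.26 and the adjusted p by Benjamini-Hochberg was 0.0411, and 0.0506 when the filter on low counts was applied again to the 7 libraries that stayed. Across 23 other settings the adjusted p ranged from 0.0181 to 0.33 and the log2 fold change from 0.19 to 0.27.

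Spi1, the master factor of the lineage, came next in the size of the difference. It measured 158, 140, 149 and 153 CPM under PBS and 147, 152, 173 and 183 CPM under rFSTL1. rFSTL1 replicates 3 and 4 lay above the PBS range and replicates 1 and 2 within it. The log2 fold change was 0.13 (SE 0.06), with an adjusted p of 0.341 by edgeR and Benjamini-Hochberg, and the 95% interval of -0.01 to 0.26 runs from a loss of 0.56% to a gain of 19.8%. The value was 0.07 without rFSTL1 replicate 4 and 0.17 without rFSTL1 replicate 1. The other PU.1-class factors were all but silent, with at most 3 counts of Spib in a library and 0 counts of Spic.

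Runx1, needed for the first blood stem cells and for myeloid gene regulation, also had groups that did not touch, by a narrow margin. The PBS libraries measured 70.9, 67.9, 69.7 and 68 CPM and the rFSTL1 libraries 71.1, 71, 71.2 and 79.6 CPM. Only rFSTL1 replicate 4 stood clear of the PBS range. The log2 fold change was 0.08 (SE 0.05, 95% interval -0.02 to 0.19) with an adjusted p of 0.429 by edgeR and Benjamini-Hochberg. The exact permutation p was 0.0286, the smallest value that test can give, which it gives whenever groups do not overlap. Without rFSTL1 replicate 4 the log2 fold change was 0.04. Runx1 held 99.3% of the length-scaled RUNX signal in both conditions, Runx2 having at most 21 counts and Runx3 at most 1 count in a library. The log2 fold change of Cbfb, whose product binds DNA together with RUNX proteins, was -0.09 (SE 0.06, adjusted p = 0.493 by edgeR and Benjamini-Hochberg).

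Cebpa gave 6.62, 6.86, 8.14 and 6.57 CPM under PBS and 6.75, 7.45, 7.85 and 8.26 CPM under rFSTL1, from 100 to 165 counts per library. The conditions overlapped. The log2 fold change was 0.10 (SE 0.12), the adjusted p was 0.699 by edgeR and Benjamini-Hochberg, and the 95% interval of -0.15 to 0.36 is among the widest of the 9. The value was 0.06 without rFSTL1 replicate 4 and 0.18 without PBS replicate 3. Mitf measured 29.7, 28.6, 30 and 35 CPM under PBS and 29.7, 34.2, 27.5 and 27.9 CPM under rFSTL1. The highest PBS library and the highest rFSTL1 library were about equal, and the fold change took its sign from PBS replicate 4. It was -0.05 (SE 0.08, 95% interval -0.22 to 0.13, adjusted p = 0.807 by edgeR and Benjamini-Hochberg) with all libraries and 0.01 without that library.

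Csf1r was the steadiest gene between the conditions. It measured 1289, 1235, 1216 and 1280 CPM under PBS and 1279, 1210, 1273 and 1314 CPM under rFSTL1. The ranges nearly coincided. The log2 fold change was 0.02 (SE 0.04, adjusted p = 0.875 by edgeR and Benjamini-Hochberg), and its 95% interval of -0.07 to 0.10 excludes a loss of over 4.54% or a gain of over 7.09%. It was 0.04 without rFSTL1 replicate 2 and -0.0012 without rFSTL1 replicate 4. Csf1r was the only one of the 9 genes with estimated counts that were not whole. Its relatives among the type III receptor tyrosine kinases, Kit, Flt3, Pdgfra and Pdgfrb, had at most 4 counts in a library.

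Cd68 was even under PBS but not under rFSTL1. The PBS libraries measured 904, 888, 902 and 887 CPM and the rFSTL1 libraries 924, 824, 939 and 1019 CPM. rFSTL1 replicate 2 was below every PBS library and the other 3 were above. The coefficient of variation was 1.02% under PBS and 8.65% under rFSTL1, and the log2 fold change was 0.05 (SE 0.05, 95% interval -0.06 to 0.16, adjusted p = 0.672 by edgeR and Benjamini-Hochberg). Without rFSTL1 replicate 2 it was 0.10, with an unadjusted p of 0.0249 and an adjusted p of 0.171 by edgeR and Benjamini-Hochberg, and without rFSTL1 replicate 4 it was 0.00.

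Lyz2, with Mitf, was one of the genes with a negative log2 fold change. It measured 1166, 1142, 1108 and 1235 CPM under PBS and 1125, 1177, 1115 and 1098 CPM under rFSTL1. The ranges overlapped, and the log2 fold change was -0.04 (SE 0.04, 95% interval -0.13 to 0.05, adjusted p = 0.641 by edgeR and Benjamini-Hochberg). It was -0.02 without PBS replicate 4 and -0.07 without PBS replicate 3. Lyz1 had 2 to 4 counts per library under PBS and 0 to 1 under rFSTL1, against at least 16840 for Lyz2. Its share of the length-scaled lysozyme signal was 0.0153% under PBS and 0.00122% under rFSTL1 (exact permutation p = 0.0286), which rests on those few counts.

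Adgre1 measured 3.22, 3.1, 3.26 and 4.14 CPM under PBS and 2.74, 4.43, 3.87 and 3.59 CPM under rFSTL1. Both the lowest and the highest library were rFSTL1 libraries. With so few counts the 95% interval around the log2 fold change of 0.10 (SE 0.18, adjusted p = 0.808 by edgeR and Benjamini-Hochberg) ran from -0.28 to 0.49, so that neither a loss of 17.5% nor a gain of 40.1% could be told from no difference at this depth. The value was 0.01 without rFSTL1 replicate 2 and 0.21 without rFSTL1 replicate 1.

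**Figure D3:**
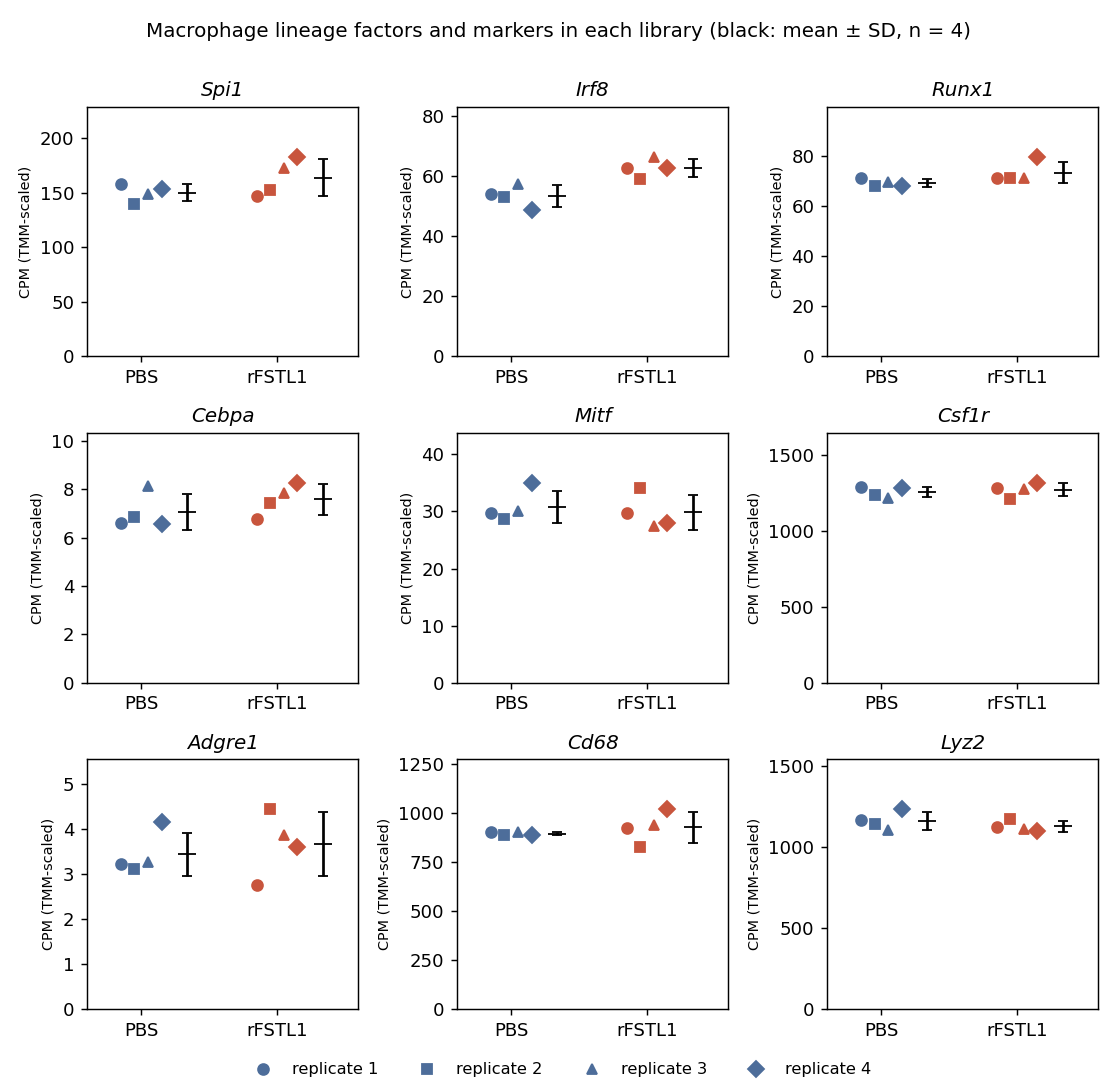
CPM of each gene in the 4 PBS (blue) and 4 rFSTL1 (red) libraries, marker shapes giving the replicate number, with the mean and SD of each group in black and every axis starting at 0. The groups do not overlap for Irf8 (at most 57.3 CPM under PBS, at least 59.1 under rFSTL1) and for Runx1 (70.9 against 71 CPM).

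Across the 9 genes, rFSTL1 replicate 4 was the highest rFSTL1 library for Spi1, Csf1r, Cd68, Cebpa and Runx1, and the lowest for Lyz2. Replicate 2 was the lowest for Csf1r, Cd68, Irf8 and Runx1, and the highest for Adgre1, Lyz2 and Mitf. These are the libraries that differed most from each other over all genes, and their part in the values above was not tested beyond the fits without them.

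Relatives of the 9 genes were compared to see whether another family member took over a role. Of the interferon regulatory factors 8 were tested, none was called by edgeR and 3 had an unadjusted p under 0.05, all higher under rFSTL1, where 8.28% of all tested genes were. The log2 fold change of Irf7, the amplifier of type I interferon responses, was the largest at 0.44 (SE 0.10, adjusted p = 0.0789 by edgeR and Benjamini-Hochberg), with 31.2, 29.5, 28.8 and 28.6 CPM under PBS and 33, 51.3, 39 and 36.5 CPM under rFSTL1. The conditions did not overlap for Irf7, and DESeq2 and limma voom called it. Irf5, which acts in inflammatory macrophages and held the largest share of the length-scaled IRF signal (38% under PBS), had 0.14 (SE 0.06, adjusted p = 0.267 by edgeR and Benjamini-Hochberg). Irf1, Irf2, Irf3, Irf4 and Irf9 lay between -0.07 and 0.14. The share of Irf8 was 14.9% ± 0.89 under PBS and 15.9% ± 0.754 under rFSTL1 (SD, n = 4, exact permutation p = 0.171).

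In the C/EBP family Cebpa was a minor member. It held 5.76% ± 0.385 of the length-scaled signal under PBS and 5.39% ± 0.345 under rFSTL1 (SD, n = 4, exact permutation p = 0.2), whereas Cebpb, the factor of activated macrophages, held 59.1% and 61.9%. All 5 genes were tested and none was called by edgeR, and Cebpb and Cebpd had unadjusted p-values under 0.05 with higher values under rFSTL1, as did 8.28% of all tested genes. Cebpb measured 41.1, 42.5, 43.3 and 38.4 CPM under PBS and 44.1, 40.8, 53.6 and 62.8 CPM under rFSTL1, and its log2 fold change was 0.29 (SE 0.10, adjusted p = 0.212 by edgeR and Benjamini-Hochberg). The values of rFSTL1 replicates 3 and 4 lay above all others, and limma voom called Cebpb, as did edgeR without rFSTL1 replicate 2 unless the filter on low counts was applied again. Cebpd had a log2 fold change of 0.26 (SE 0.09, adjusted p = 0.207 by edgeR and Benjamini-Hochberg), Cebpe 0.24 (SE 0.18) and Cebpg -0.04 (SE 0.06).

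Mitf was outweighed by Tfe3, a relative that also drives lysosomal genes. Mitf held 27.1% ± 1.71 of the length-scaled signal of the family under PBS and 25.9% ± 3.52 under rFSTL1 (SD, n = 4, exact permutation p = 0.629), Tfe3 held 56% under PBS, and Tfec had 0 counts. The log2 fold changes of Tfe3 and Tfeb were 0.05 (SE 0.05) and 0.04 (SE 0.14). Cd68 shared its family's signal with the lysosomal proteins Lamp1 and Lamp2, at 49.4% ± 0.785 under PBS and 51.1% ± 2.12 under rFSTL1 (SD, n = 4, exact permutation p = 0.229). Lamp1 had a log2 fold change of -0.04 (SE 0.04) and Lamp2 one of -0.10 (SE 0.05, adjusted p = 0.289 by edgeR and Benjamini-Hochberg).

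Adgre1 had a larger share of the EGF-TM7 receptors under rFSTL1. It was 70%, 66.7%, 69.4% and 70% in the PBS libraries and 76%, 76.3%, 78.4% and 72.2% in the rFSTL1 libraries, so the conditions did not overlap (means 69% ± 1.57 and 75.7% ± 2.6, SD, n = 4, exact permutation p = 0.0286 before adjustment for the 9 such shares tested, of which that of Lyz2 gave the same p). Both parts of the ratio were small. Adgre5, the gene for the lymphocyte and myeloid adhesion receptor CD97, had 12 to 27 counts per library and a log2 fold change of -0.41 (SE 0.25, adjusted p = 0.444 by edgeR and Benjamini-Hochberg), and the estimated counts of Adgre5 were not all whole. Adgre4 had at most 2 counts in a library.

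**Figure D4:**
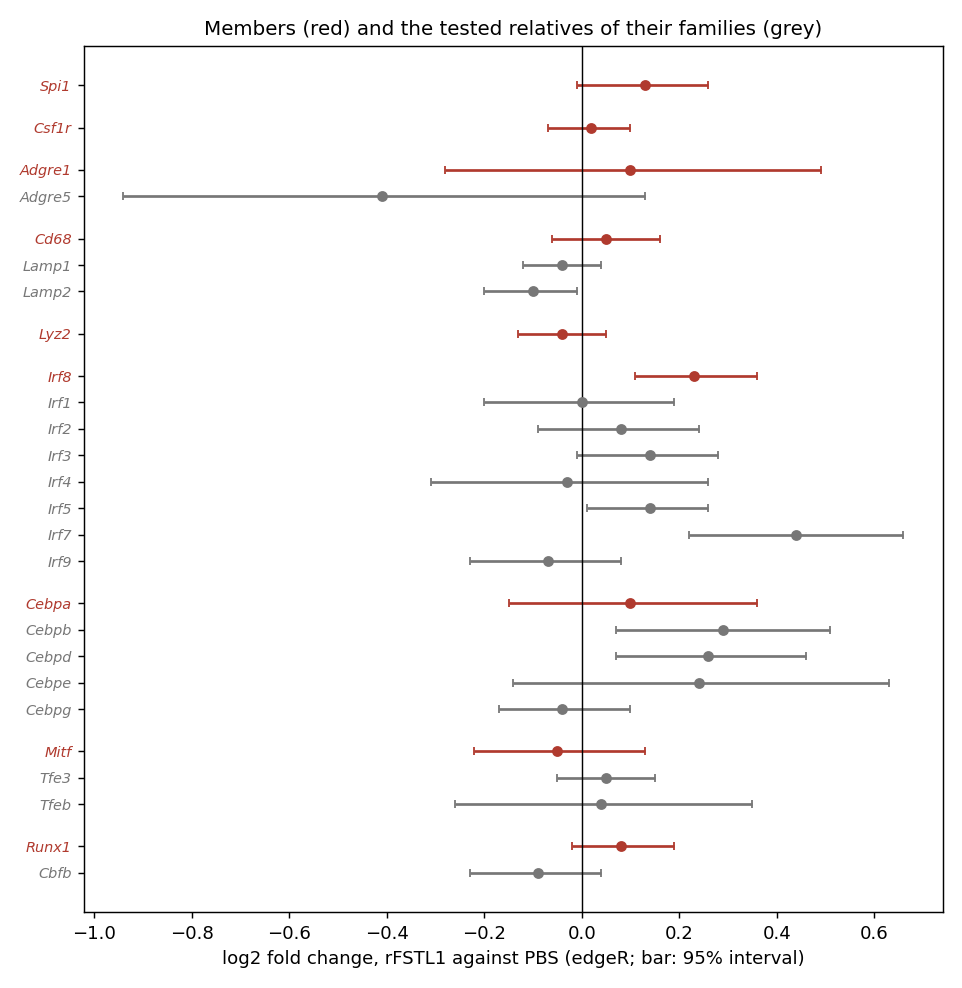
Log2 fold change between rFSTL1 and PBS from edgeR with its 95% interval for the 9 genes (red) and the tested relatives of their families (grey). The interval of Irf8 (0.11 to 0.36) is the only red one that lies wholly above 0, and that of Adgre1 (-0.28 to 0.49) is the widest red one.

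Beyond their own families, the 9 genes work with other regulators and with colony-stimulating factor signaling. Of 24 other regulators of the myeloid lineage, 18 were tested and none was called by edgeR. Unadjusted p-values under 0.05 were found for 7 higher and 2 lower genes, directions in which 8.28% and 7.56% of all tested genes lay, and the median log2 fold change was 0.11. The highest by CPM per kilobase were Ets2 (log2 fold change 0.10, SE 0.04), Jun (0.12, SE 0.04), Lmo2 (0.05, SE 0.05) and Elf1 (-0.10, SE 0.05). DESeq2 and limma voom each called 1 gene, Zeb2, a transcriptional repressor at work in many macrophages. It was named after its values were seen, and its level was 191, 196, 197 and 207 CPM under PBS and 183, 180, 173 and 180 CPM under rFSTL1.

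Of 22 genes of CSF1, IL-34, GM-CSF and G-CSF signaling, 19 were tested and none was called by edgeR. An unadjusted p under 0.05 was found for 4, all higher, and 16 of the 19 log2 fold changes were positive with a median of 0.06. Over all tested genes 8.28% were higher at that threshold, and 52% were positive with a median of 0.006. The most abundant per length were Tyrobp (log2 fold change 0.12, SE 0.04), Ptpn6 (0.13, SE 0.04), which encodes the phosphatase SHP-1, Grb2 (0.04, SE 0.04) and Inpp5d (0.02, SE 0.05). limma voom called Ptpn6.

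Of 10 target genes of MITF in bone-resorbing cells and lysosomes, 7 were tested, none was called by edgeR and 1, Mcoln1, had an unadjusted p under 0.05 with a higher value, against 8.28% of all tested genes. Ctsk, Oscar and Atp6v0d2 did not pass the filter on low counts, with PBS means of 0.193, 0.0493 and 0.15 CPM. The 7 tested genes had a median log2 fold change of 0.07. The most abundant of them per length were the protease gene Ctsd (0.02, SE 0.05), Gpnmb (0.07, SE 0.04), Neu1 (0.07, SE 0.05) and Clcn7 (0.05, SE 0.06). The further macrophage markers had a median of 0.02, with 15 tested, none called by edgeR, and 3 higher and 2 lower at an unadjusted p under 0.05, against 8.28% and 7.56% of all tested genes. Among the latter, Cd33, named after its values were seen, a sialic acid-binding receptor, measured 295, 308, 314 and 306 CPM under PBS and 279, 267, 267 and 250 CPM under rFSTL1. Its log2 fold change was -0.20 with an adjusted p of 0.0585 by edgeR and Benjamini-Hochberg, and it was called by DESeq2, by limma voom and without rFSTL1 replicate 1 or 2.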

How the data were processed

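RNA-seq counts of 8 RAW264.7 libraries, 4 with PBS and 4 with rFSTL1 (100 ng/mL, 24 h), were re-analysed, with groups and replicate numbers taken from the sample labels. The authors deposited expected counts (estimated counts) of 22013 genes without normalization. The submitters' processing notes name Bowtie2 2.2.8, HISAT2, StringTie 1.3.1 and DESeq2, and the genome build and annotation of the count table are not given in the sources used here. Of the nonzero deposited counts, 13% were not whole, and all were rounded. Whole counts had been assumed when the tests were chosen, and those tests were kept. The library kit named in the labels does not mark strand, so reads of a gene and of an antisense partner cannot be told apart. A symbol was missing for 112 rows, 17 symbols stood on more than 1 row, and each column of counts had its sample.

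Genes were kept by filterByExpr (minimum count 10), scaled by TMM and compared with edgeR 4.0.16 (glmQLFit and glmQLFTest, R 4.3.3), with Benjamini-Hochberg adjustment over 10748 genes taking 0.05 as threshold. The F statistic and the fold change gave the standard errors. Single genes and shares were compared by exact two-sided permutation tests over 70 assignments, on log2(CPM + 1) for genes, which cannot give less than 0.0286. Levels per kilobase used the longest transcript of GENCODE vM21, in which 21875 identifiers were found. The members and lists were chosen with earlier results of these data known. The rule for naming genes took the members, the relatives in their families, the 4 genes of each other list with the highest CPM per kilobase and, for Spi1 and Csf1r, the 3 genes of most similar pattern. Marker genes of cell types are also named where they describe their list, and Zeb2, Cd33 and Mcoln1 were named after their values were seen. Alternatives were limma voom (3.58.1) with sample quality weights, DESeq2 1.42.0, other scalings, all genes with at least 1 count, an adjusted p under 0.1, the replicate number as a block, leaving out each library, the median transcript length, a pseudocount of 0.1 and shares without length. Leaving out a library with the filter applied again was added after the data had been seen. The fit was tested on simulated data. Correlations of the deviations of libraries with the same number were -0.090, 0.085, -0.013 and 0.001, so no deviation shared by replicate number was seen. They cannot show whether libraries with the same number were prepared together. RNA-seq of primary cells from the same study was not analysed here.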

Additional observations from a re-analysis of the deposited data

Results flagged for a closer look

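In 2 of the 18 groups of 4 values formed by the 9 genes and the conditions, a library stood apart from the other 3 by Dixon's criterion, where chance alone is expected to give 0.9. Adgre1 measured 4.14 CPM in PBS replicate 4 against 3.1 to 3.26 CPM in the other PBS libraries, a gap of 0.849 of the group's range, on 53 to 66 counts per PBS library. Runx1 measured 79.6 CPM in rFSTL1 replicate 4 against 71 to 71.2 CPM in the other rFSTL1 libraries, a gap of 0.974 of the range.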

How the results depend on the processing

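Of the log2 fold changes of the 9 genes, those of Spi1, Cd68, Lyz2, Cebpa and Runx1 kept their sign and their side of the threshold in all 23 other settings. Irf8 kept its sign in all of them and was called by DESeq2 (0.2295) and limma voom (0.2604), and its values with a library left out ranged from 0.1890 to 0.2727 (0.1889 to 0.2728 with the filter applied again). The sign turned for Csf1r without rFSTL1 replicate 4 (-0.0012, and -0.0011 with the filter applied again), for Mitf without PBS replicate 4 (0.0102 and 0.010) and for Adgre1 without rFSTL1 replicate 2 when the filter was applied again (-0.0012). With a library left out, Csf1r ranged from -0.0012 to 0.0382 and Mitf from -0.1201 to 0.0102. The cause was not tested. The number of the 9 genes called was 1 with DESeq2, with limma voom and at an adjusted p under 0.1, and 0 to 1 with a library left out. All genes called numbered 182 with DESeq2, 454 with limma voom, 56 with upper-quartile factors, 127 with all genes of at least 1 count, 133 at an adjusted p under 0.1, and 11 (without PBS replicate 2) to 203 (without rFSTL1 replicate 2) with a library left out. With the filter applied again these were 24, 11, 12 and 12 without PBS replicates 1 to 4 and 99, 90 and 16 without rFSTL1 replicates 1 to 3. Among the lists, calls went from 0 to 2 interferon regulatory factors with DESeq2, limma voom or an adjusted p under 0.1, to 1 with all genes of at least 1 count and to 0 to 2 with a library left out. Calls went to 1 C/EBP gene with limma voom and 0 to 1 with a library left out, to 1 myeloid regulator with DESeq2 or limma voom and 0 to 1 with a library left out, and to 1 gene of colony-stimulating factor signaling with limma voom. For macrophage markers they went to 1 with DESeq2, 2 with limma voom, 1 with all genes of at least 1 count, 1 at an adjusted p under 0.1 and 0 to 1 with a library left out. By median transcript length the PBS levels in CPM per kilobase were 259 for Spi1, 893 for Csf1r, 3.74 for Adgre1, 889 for Cd68, 41.5 for Irf8, 15.3 for Mitf and 27.2 for Runx1. Without division by length the PBS shares were 70.6% for Adgre1, 32.9% for Cd68, 18.3% for Irf8, 6.2% for Cebpa and 25.1% for Mitf. Under the replicate block 41 genes and 0 of the 9 were called, and the log2 fold change of Irf8 was 0.2365 (adjusted p = 0.0852 by edgeR and Benjamini-Hochberg). The block changed no call of these genes or lists. Depth limits Adgre1 and Cebpa, with at most 165 counts per library, and at least 444 counts per library stood behind each of the other 7 genes.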

Other observations

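As a description over 8 libraries, the tested genes whose log2(CPM + 1) most resembled that of Spi1 after subtraction of each group's mean were Pfn1 (Pearson r = 0.992), Mical2 (0.988) and Dcakd (0.987). For Csf1r they were Gadd45g (0.991), Fuca1 (0.991) and Lat2 (0.986). The genes share the same 8 libraries and their scaling, and they were picked as the highest of 10748.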
